A study of Mus musculus with 2 samples.

Results

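Gdf15 and 9 related genes were followed across the cells of the mouse retinal pigment epithelium (RPE) and its neighbours, 10 genes of the 32285 counted. The other members were Tgfb1, Tgfb2, Tgfb3, Inhba, Inhbb, Bmp2, Bmp4, Bmp7 and Wfikkn2, each found by its symbol among the gene names of the deposited matrices. They were chosen by their measured levels in RPE cells of the 2 libraries, with earlier results of these data known, so all levels and ratios below are descriptions.

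Growth factors of the TGF-beta family are secreted as dimers and signal through pairs of type I and type II serine/threonine kinase receptors. TGF-betas and activins act mainly through SMAD2 and SMAD3, bone morphogenetic proteins (BMPs) through SMAD1, SMAD5 and SMAD9, and proteins outside the cell hold many of these ligands latent or inactive. GDF15 is a distant relative that acts through GFRAL and its co-receptor RET, found mainly in the hindbrain, and its gene is a known target of p53 and of the integrated stress response. WFIKKN2 is not a ligand but a secreted protein with protease inhibitor domains that binds GDF11 and myostatin.

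The Control library came from C57BL/6J mice given 1 µl of phosphate-buffered saline (PBS) under the retina, and the Dox library from C57BL/6J mice given 1 µl of doxorubicin (Dox, a drug that damages DNA) at 100 ng/µl by the same route. The mice were males aged 3 months, and tissue was taken 7 days after injection. Papain-digested RPE, choroid and sclera from 10 eyes of 5 mice were pooled for each condition, depleted of dead cells and run as 1 library of 5′ single-cell RNA, so no test between conditions was possible and the animals cannot be told apart. Injected drug reaches only a part of the RPE, so the Dox library mixes exposed and unexposed cells.

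The deposited matrices held 20381 Control cells with 117731270 unique molecular identifiers (UMIs, each standing for 1 captured transcript) and 15649 Dox cells with 103997248 UMIs, of which 20180 and 15426 cells passed the filters. The libraries shared 441 cell barcodes, and 3 of these were RPE cells in both. Cells with at least 10 Rpe65 UMIs (Rpe65 encodes the isomerase of the visual cycle) were taken as RPE cells, 1526 in Control and 1630 in Dox. Cells with at least 50000 Malat1 UMIs per 1000000 UMIs (CPM) were set apart as Malat1-rich RPE, since a large share of this nuclear RNA accompanies low UMI totals here. Of the rest, cells with at least 500 CPM of Serpina3n, an acute-phase protease inhibitor gene, were called Serpina3n-high RPE and the others main RPE. All 3 RPE groups had 9 of 10 RPE markers at 10 CPM or more in both libraries, but so did all other cells together. That count therefore does not separate RPE from other cells. The 10 markers summed to 108032 CPM in Control and 113375 CPM in Dox main RPE, and to 81676 and 93210 CPM in Serpina3n-high RPE. Malat1-rich RPE had 36654 and 34496 CPM, and all other cells had 5218 and 8152 CPM. The hemoglobin-led droplets described below, which fell outside RPE, had 28811 and 44940 CPM.

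Main RPE held 1340 Control and 1187 Dox cells, with a median of 17504 and 19061 UMIs. Serpina3n-high RPE held 33 and 232 cells, with a median of 28550 and 28355 UMIs. Malat1-rich RPE held 153 and 211 cells, with a median of 4117 and 5025 UMIs. Serpina3n-high cells were therefore 2.16% of RPE cells in Control (95% interval 1.49 to 3.02) and 14.2% in Dox (12.6 to 16.02), and the Control group is the smallest in each comparison below. Near the limits, 83 Control and 116 Dox cells had 8 or 9 Rpe65 UMIs against 66 and 81 with 10 or 11. For Serpina3n, 4 Control and 12 Dox cells lay at 400 to 500 CPM against 7 and 11 at 500 to 600 CPM, and for Malat1, 16 and 18 cells lay at 45000 to 50000 CPM against 7 and 9 at 50000 to 55000 CPM. Levels below are summed over the cells of a group and given in CPM. As each transcript gives 1 tag at its 5′ end, a level is not divided by gene length. All intervals are 95% intervals of counting error only and carry no spread between cells or animals.

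Gdf15 lies at chr8:70629393-70632456 on the minus strand, Wfikkn2 at chr11:94235956-94246005 on the minus strand and Bmp4 at chr14:46383520-46390669 on the minus strand (mm10, GENCODE vM21). The promoters of these 3 genes are shown because Gdf15 and Wfikkn2 had the largest ratios of Serpina3n-high over main RPE in Dox among members with at least 20 UMIs, and Bmp4 had the highest level in RPE. Each runs from 250 bases before to 50 bases after a RefSeq start on GRCm38.p6, the assembly behind mm10, and 7 of the 10 members had an entry. The Gdf15 windows are chr8:70632407-70632706 and chr8:70632046-70632345 for a second start within the gene, the Wfikkn2 window is chr11:94242530-94242829, which also lies within the gene as GENCODE draws it, and the Bmp4 window is chr14:46390620-46390919, all read 5′ to 3′ on the minus strand. Capitals mark matches to the motifs named after them.
Gdf15, first start: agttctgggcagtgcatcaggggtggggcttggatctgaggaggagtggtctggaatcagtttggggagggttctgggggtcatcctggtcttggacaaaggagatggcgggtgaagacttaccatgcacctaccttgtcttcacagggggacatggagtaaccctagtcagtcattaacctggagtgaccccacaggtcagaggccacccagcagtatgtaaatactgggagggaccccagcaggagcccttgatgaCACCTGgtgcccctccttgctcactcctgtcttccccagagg
Gdf15, second start: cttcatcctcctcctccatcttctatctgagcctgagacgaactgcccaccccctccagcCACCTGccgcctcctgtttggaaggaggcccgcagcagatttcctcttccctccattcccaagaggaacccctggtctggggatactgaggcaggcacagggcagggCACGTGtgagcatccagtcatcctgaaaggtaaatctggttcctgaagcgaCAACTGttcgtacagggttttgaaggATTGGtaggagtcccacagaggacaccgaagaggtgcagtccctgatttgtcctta
Wfikkn2: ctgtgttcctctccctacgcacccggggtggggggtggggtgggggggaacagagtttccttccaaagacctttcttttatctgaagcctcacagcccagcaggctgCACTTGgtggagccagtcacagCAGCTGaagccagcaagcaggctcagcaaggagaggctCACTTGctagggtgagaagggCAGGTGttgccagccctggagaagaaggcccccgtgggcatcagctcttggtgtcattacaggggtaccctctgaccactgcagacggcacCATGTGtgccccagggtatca
Bmp4: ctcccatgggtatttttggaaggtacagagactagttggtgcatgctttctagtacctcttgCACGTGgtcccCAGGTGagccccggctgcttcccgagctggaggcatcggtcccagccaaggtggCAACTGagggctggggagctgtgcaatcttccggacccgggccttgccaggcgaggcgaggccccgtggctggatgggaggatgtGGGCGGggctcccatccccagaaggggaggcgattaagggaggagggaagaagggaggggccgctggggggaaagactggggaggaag

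Motifs were searched as exact letters on both strands. The first Gdf15 promoter held 1 E box (CANNTG) and the second held 3 E boxes and 1 CCAAT box. Wfikkn2 held 5 E boxes, and Bmp4 held 1 GC box (GGGCGG) and 3 E boxes. E boxes stood in 72.3% of 32851 mouse promoters of this length, CCAAT in 37.4% and GGGCGG in 35.7%, so these matches are common ones. None of the 8 promoter entries of the members held the AP-1 letters TGANTCA (7.81% of promoters), the cyclic AMP response element TGACGTCA (1.79%), the C/EBP-ATF letters TGATGNAA (3.97%), the SMAD palindrome GTCTAGAC (0.213%) or the core of a p53 site, CATGNNNNNNCATG (0.712%). This says only that those letters are not in these windows. Tgfb2 and Inhba were the members with a TATAAA match, which 13.6% of promoters held.

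Gdf15 was measured at 18.0 CPM (473 UMIs, interval 16.4 to 19.7) in Control RPE and at 43.2 CPM (1349 UMIs, 41.0 to 45.6) in Dox RPE. The Dox level was 2.41-fold the Control level, a ratio of 1.27 on the log2 scale (1.11 to 1.42). The difference was not spread evenly over the RPE. In main RPE the levels were 16.2 CPM (401 UMIs) in Control against 15.9 CPM (376 UMIs) in Dox, a ratio of -0.03 on the log2 scale (-0.24 to 0.17). In Serpina3n-high RPE they were 34.1 CPM (30 UMIs, 23.0 to 48.7) in Control against 127.5 CPM (798 UMIs, 118.9 to 136.7) in Dox, a ratio of 1.90 on the log2 scale (1.38 to 2.48). The intervals of main RPE overlapped and those of Serpina3n-high RPE did not. The Serpina3n-high cells of the libraries also differed in the gene that defines them, with 1825 CPM of Serpina3n in Control and 5648 CPM in Dox. In all RPE Serpina3n was at 79.4 and 1184 CPM. Malat1-rich RPE also had a higher Gdf15 level in Dox, with 56.3 CPM (42 UMIs) in Control against 135.8 CPM (175 UMIs) in Dox, a ratio of 1.27 on the log2 scale (0.78 to 1.79), although 1 Control cell held 19 of the 42 UMIs and the Control level was 31.5 CPM without it. Among all genes with at least 20 UMIs over both libraries, Gdf15 stood 79th from the top of 14215 by the log2 ratio in all RPE cells, 207th of 10325 in Serpina3n-high RPE and 132nd of 9266 in Malat1-rich RPE, but 7733rd of 13861 in main RPE.

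Most of the Gdf15 RNA of the Dox RPE thus lay in a minority of its cells. Serpina3n-high cells held 59.2% of the Gdf15 UMIs of Dox RPE and 20.1% of all UMIs there, and in Control they held 6.34% of the Gdf15 UMIs and 3.35% of all UMIs. Within the Dox library the Serpina3n-high level was 8.03-fold the main RPE level, a ratio of 3.00 on the log2 scale (2.83 to 3.19), and Gdf15 stood 34th from the top of 12924 genes. Within the Control library the ratio was 2.10-fold, a ratio of 1.07 on the log2 scale (0.48 to 1.61). Malat1-rich RPE was also above main RPE, by 8.54-fold in Dox (log2 ratio 3.095, 2.83 to 3.36). In Control it was above by 3.47-fold (log2 ratio 1.79, 1.30 to 2.25). The 178 Dox Malat1-rich cells under 500 Serpina3n CPM had 126.3 CPM of Gdf15 (105.9 to 149.5). A high Gdf15 level was thus not particular to Serpina3n-high cells. The Serpina3n-high group in Control rests on 33 cells, 1 of which held 7 of its 30 Gdf15 UMIs, and its level was 27.6 CPM without that cell.

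The share of cells with a Gdf15 UMI followed the same order. It was 66.8% (60.3 to 72.8) of Dox Serpina3n-high cells and 17.1% of Dox main RPE cells, and 39.4% and 17.5% in Control. T- or NK-like cells, taken as cells that should lack the gene, had a Gdf15 UMI in 8.92% of Control and 7.004% of Dox cells at median totals of 3752 and 3915 UMIs, so these shares differ in depth. With every cell thinned to 2000 UMIs, 18.8% (13.9 to 24.6) of 223 Dox Serpina3n-high cells kept a Gdf15 UMI, against 2.55% (1.73 to 3.63) of 1175 Dox main RPE cells and 3.35% of 239 Dox T- or NK-like cells. The main RPE share in Dox was thus no higher than that of T- or NK-like cells. Whether those cells lack the gene was not tested. In Control, likewise, 3.53% of 1333 main RPE cells and 4.27% of 398 T- or NK-like cells kept a UMI. Among Control Serpina3n-high cells 4 of 32 did so, 12.5% (3.51 to 29.0), although a separate random draw used for the thinned ratios left that group 1 Gdf15 UMI.

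Gdf15 was also uneven within the Dox Serpina3n-high cells. The median cell had 2 Gdf15 UMIs and the highest 27, and the top 23 cells held 44.9% of the UMIs. Across all Dox RPE cells under the Malat1 limit, the Gdf15 level was 10.98 CPM in the 670 cells with no Serpina3n UMI, 16.9 CPM above 0 and under 200 Serpina3n CPM, 77.3 CPM from 200 to 500, 94.2 CPM from 500 to 1000, 106.1 CPM from 1000 to 2000 and 136.7 CPM at 2000 or more. The Dox level was thus higher in each successive Serpina3n bin, but from 200 CPM up the intervals of neighbouring bins overlapped. They were 59.9 to 98.1, 74.6 to 117.4, 83.4 to 132.9 and 126.3 to 147.7 CPM. The Dox cells from 200 to 500 CPM had a median of 7786 UMIs. In Control the same bins had 16.8, 12.2, 17.8, 32.8, 37.5 and 32.95 CPM, the last 3 from 18, 7 and 8 cells. The plot of levels by Serpina3n bin shows both series with the corresponding values of Wfikkn2, Bmp4 and Bmp2.

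**Figure D1:**
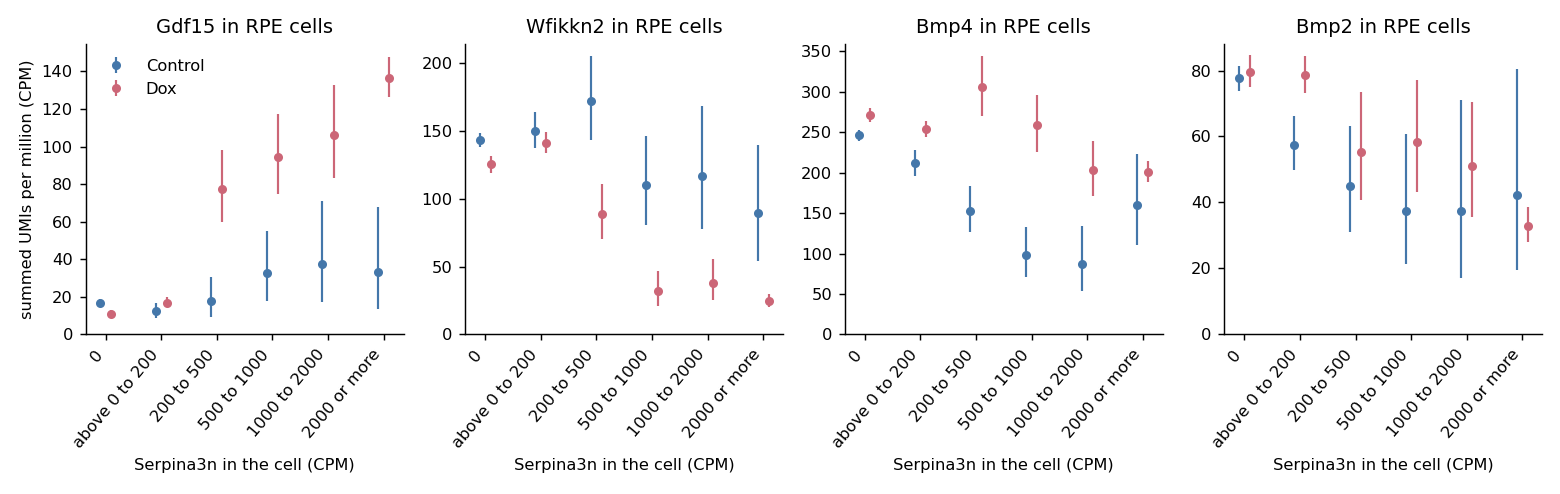
CPM of Gdf15, Wfikkn2, Bmp4 and Bmp2 (vertical axes) in RPE cells binned by Serpina3n CPM (horizontal axis), with points for summed levels of Control and Dox cells and lines for 95% counting intervals. Dox Gdf15 goes from 10.98 to 136.7 CPM between the lowest and highest bins while Dox Wfikkn2 goes from 125.3 to 24.6 CPM.

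Gdf15 was compared with Cdkn1a, the p53 target that encodes the cell cycle inhibitor p21, and Ddit3, the integrated stress response gene that encodes CHOP. In Dox Serpina3n-high RPE, the 205 cells with a Cdkn1a UMI had 133.8 CPM of Gdf15 and the 27 cells without one had 31.4 CPM. In all Dox RPE the corresponding levels were 75.01 and 15.4 CPM, and in Control they were 24.2 and 14.9 CPM. In main RPE they were 24.1 and 11.7 CPM in Dox and 23.0 and 12.8 CPM in Control. The split by Ddit3 gave 131.3 CPM in Dox Serpina3n-high cells that had a Ddit3 UMI and 119.4 CPM in those that had none. In Control Serpina3n-high RPE the Ddit3 split gave 45.6 CPM (27 UMIs) and 10.4 CPM (3 UMIs). The Cdkn1a split there gave 57.8 and 24.2 CPM (15 UMIs each), so the gap by Ddit3 was not the smaller one. In all RPE the Ddit3 split gave 49.7 and 35.95 CPM in Dox and 18.7 and 17.3 CPM in Control. Both were smaller gaps than those by Cdkn1a. In Control Malat1-rich RPE, cells with a Cdkn1a UMI had less Gdf15 (28.4 CPM, 6 UMIs) than cells without one (67.3 CPM, 36 UMIs, 19 of them in 1 cell). Dox Malat1-rich RPE had the opposite direction, with 176.3 CPM (113 UMIs) in cells with a Cdkn1a UMI and 95.7 CPM (62 UMIs) in cells without. The Ddit3 split of Malat1-rich RPE gave 175.9 and 117.5 CPM in Dox. In Control it gave 12.3 CPM (2 UMIs) and 68.5 CPM (40 UMIs). Cells with more UMIs are more likely to fall on the positive side of each split. In Dox Serpina3n-high RPE, cells under a mitochondrial share of 5% had 128.4 CPM of Gdf15. Cells at 5% or more had 106.0 CPM (25 UMIs), and the intervals overlapped. All RPE had the opposite direction, with 17.1 and 26.0 CPM in Control and 42.2 and 52.55 CPM in Dox. So did main RPE, with 15.2 and 27.3 CPM in Control and 15.4 and 21.1 CPM in Dox. Malat1-rich RPE had 100.0 and 21.6 CPM in Control and 142.0 and 130.3 CPM in Dox.

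Wfikkn2, which encodes the binder of GDF11 and myostatin, differed in the opposite direction. Its level was 141.5 CPM (3723 UMIs, 137.0 to 146.1) in Control RPE and 107.0 CPM (3338 UMIs, 103.4 to 110.7) in Dox RPE, a ratio of -0.40 on the log2 scale (-0.47 to -0.34). Main RPE had 145.1 CPM in Control against 130.6 CPM in Dox, a ratio of -0.15 on the log2 scale (-0.22 to -0.08). Serpina3n-high RPE had 106.8 CPM (94 UMIs, 86.3 to 130.7) in Control against 27.2 CPM (170 UMIs, 23.2 to 31.6) in Dox, so that the Control level was 3.93-fold the Dox level, a ratio of -1.98 on the log2 scale (-2.35 to -1.60). This was the 131st lowest ratio of 10325 genes. Malat1-rich RPE had 61.6 CPM in Control against 60.5 CPM in Dox, and its intervals overlapped.

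Within the Dox library, Wfikkn2 was lower in Serpina3n-high than in main RPE by a log2 ratio of -2.27 (-2.50 to -2.04), and within Control by -0.44 (-0.75 to -0.15). A Wfikkn2 UMI was found in 34.1% of Dox Serpina3n-high cells and 58.4% of Dox main RPE cells, and after thinning in 4.48% (2.17 to 8.09) and 20.9% (18.6 to 23.3). T- or NK-like cells had 2.09% (0.683 to 4.81) after thinning in Dox, an interval that overlaps that of Dox Serpina3n-high RPE. By Serpina3n bin, from no UMI to 2000 CPM or more, the Dox levels were 125.3, 141.3, 88.8, 32.2, 38.2 and 24.6 CPM, and the Control levels 143.4, 150.0, 172.1, 110.0, 116.5 and 89.4 CPM. The 2 lowest Dox bins were thus far above the 3 highest.

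Gdf15 and Wfikkn2 also differed together within main RPE of the Dox library. There, the 203 cells with a Gdf15 UMI had 82.9 CPM of Wfikkn2 (75.1 to 91.2) and the 984 cells without one had 143.4 CPM (138.1 to 149.0). In Control main RPE the levels were 142.8 CPM (132.5 to 153.8) in 234 cells with a Gdf15 UMI and 145.7 CPM (140.4 to 151.1) in 1106 cells without one. The gap was present in Dox and within the counting intervals in Control, and the difference between the libraries was not tested. Cells with a Gdf15 UMI had more UMIs in both libraries, with medians of 20404 against 16903 in Control and 24575 against 18000 in Dox. Wfikkn2 was lower in main RPE cells at or above the median UMI total of RPE than below it. The levels were 116.0 and 175.0 CPM in Dox and 129.0 and 196.2 CPM in Control. With and without a Cdkn1a UMI, they were 94.96 and 149.0 CPM in Dox and 139.0 and 148.3 CPM in Control. The part of UMI totals and of Cdkn1a in the gap by Gdf15 was not tested. In both libraries Wfikkn2 was concentrated in some cells, since the top 134 of 1340 main RPE cells held 51.5% of its UMIs in Control and the top 119 of 1187 held 52.8% in Dox, and a single Dox cell held 53.

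The BMP genes were the most abundant ligands of RPE. Bmp4 was measured at 234.4 CPM in Control RPE and 255.6 CPM in Dox RPE, a ratio of 0.13 on the log2 scale (0.08 to 0.17). In Serpina3n-high RPE it was 110.2 CPM (97 UMIs) in Control against 209.1 CPM (1308 UMIs) in Dox, a ratio of 0.92 on the log2 scale (0.63 to 1.24), short of 2-fold. When cells were thinned to 2000 UMIs this ratio was -0.10, on 12 Control UMIs. In Malat1-rich RPE Bmp4 was 230.5 CPM in Control against 308.8 CPM in Dox, and thinning again turned the direction, to -0.05. Bmp4 was lower in Serpina3n-high than in main RPE within each library, by log2 ratios of -1.12 in Control and -0.34 in Dox.

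Bmp2, a close relative of Bmp4, was at 73.9 CPM in Control against 74.3 CPM in Dox RPE, a ratio of 0.01 on the log2 scale (-0.08 to 0.09). In Serpina3n-high RPE it was 38.6 CPM in Control against 38.4 CPM in Dox, below the main RPE levels of 73.9 and 78.3 CPM. Its highest levels were in Malat1-rich RPE, with 115.2 CPM in Control against 173.8 CPM in Dox, a ratio of 0.59 on the log2 scale (0.23 to 0.97). Bmp7 did not differ between Control and Dox beyond counting error in any RPE group. Its levels were 55.6 and 57.0 CPM in all RPE and 56.3 and 59.1 CPM in main RPE. They were 42.0 and 48.6 CPM in Serpina3n-high RPE and 49.6 and 59.75 CPM in Malat1-rich RPE. Serpina3n-high was below main RPE by log2 ratios of -0.42 (-0.93 to 0.05) in Control and -0.28 (-0.47 to -0.10) in Dox.

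The TGF-beta genes were low in RPE. Tgfb1, which encodes the form best known in immune cells, was at 5.36 CPM in Control against 3.59 CPM in Dox RPE, a ratio of -0.58 on the log2 scale (-0.95 to -0.21). In Serpina3n-high RPE it was 23.9 CPM (21 UMIs) in Control against 2.88 CPM (18 UMIs) in Dox, a ratio of -3.05 on the log2 scale, but 1 Control cell held 12 of the 21 UMIs and the Control level was 10.5 CPM without it. Without the cells with the highest doublet scores, that ratio was -0.17, on 2 Control UMIs. Tgfb2 was at 4.52 CPM in Control against 5.35 CPM in Dox RPE, and Tgfb3 at 9.81 and 8.88 CPM, with intervals of both ratios that include 0.

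The activin subunit genes were at the edge of detection. Inhba, the gene of the beta A subunit, had 14 UMIs in Control RPE (0.532 CPM) and 27 in Dox RPE (0.865 CPM). Inhbb, the gene of the beta B subunit, had 4 UMIs in Control RPE (0.152 CPM) and 19 in Dox RPE (0.609 CPM), a ratio of 2.002 on the log2 scale (0.41 to 4.02). Of the 19 Dox UMIs, 15 lay in Serpina3n-high cells, 5 of them in 1 cell. At 50 UMIs over both libraries as the minimum, Inhbb is not counted.

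Across all RPE cells, 2 of 10 members (Gdf15 and Inhbb, both higher in Dox) were past 2-fold, where 4.31% of 14215 genes were. With at least 5 Rpe65 UMIs Gdf15 was short of 2-fold (0.96), and likewise as a mean of each cell's own CPM (0.92), where the members past it were Inhba and Inhbb. In main RPE 0 of 9 members with enough UMIs were past 2-fold, beside 3.64% of 13861 genes. In Serpina3n-high RPE 3 of 8 were, Gdf15 higher and Tgfb1 and Wfikkn2 lower in Dox, beside 13.3% of 10325 genes. In Malat1-rich RPE 1 of 6 was, Gdf15, beside 5.73% of 9266 genes. For Dox Serpina3n-high over Dox main RPE, 3 of 9 were, Gdf15 higher and Bmp2 and Wfikkn2 lower, beside 12.3% of 12924 genes. Fewer than 10 members were counted wherever the others had under 20 UMIs, and since the members were chosen with these ratios known, nothing is read from the counts. The median log2 ratio of the members was 0.08 in all RPE, -0.01 in main RPE, -0.26 in Serpina3n-high RPE and 0.51 in Malat1-rich RPE, beside -0.02, -0.01, -0.02 and 0.02 over all genes.

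**Figure D2:**
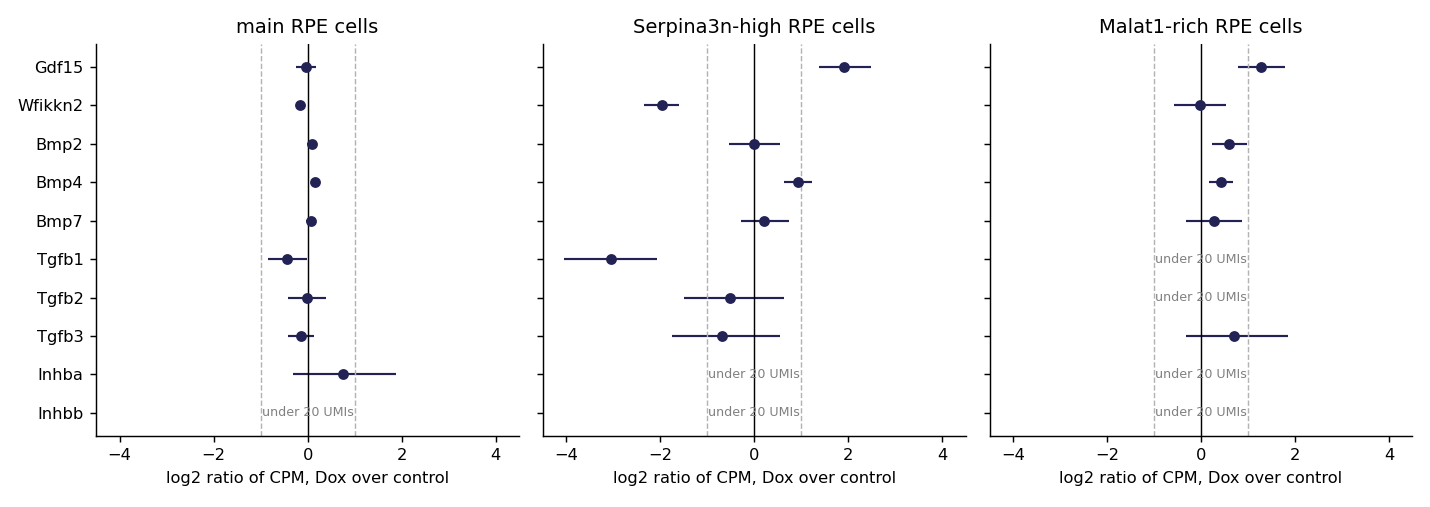
Log2 ratio of CPM, Dox over Control (horizontal axes), for each member (vertical axis) in main, Serpina3n-high and Malat1-rich RPE, with lines for 95% counting intervals and dashed lines at 2-fold. Gdf15 sits at -0.03, 1.90 and 1.27 and Wfikkn2 at -0.15, -1.98 and -0.03, and members with under 20 UMIs are not drawn.

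Outside RPE, the cells were clustered without the members and named from marker genes. Gdf15 was highest in dendritic- or macrophage-like cells, at 867.0 CPM in 938 Control cells and 605.9 CPM in 506 Dox cells. At a finer resolution, cells led by C1qb, a complement gene of macrophages, had 1768 CPM in Control against 1365 CPM in Dox. Those led by Cd209a, a dendritic cell gene, had 21.4 and 13.5 CPM. The finer clusters are not strict parts of the coarser one. In Control the C1qb-led cells held 4422 Gdf15 UMIs and the dendritic- or macrophage-like cells 4345. The C1qb-led cells held 54.4% of all Gdf15 UMIs of the Control library and 36.9% of those of the Dox library.

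Of 13 groups in Control, Gdf15 was next highest in hemoglobin-led droplets that could not be named (127.8 CPM, a median of 894 UMIs per cell) and then in smooth muscle-like cells (71.7 CPM). From smooth muscle-like cells down to melanocyte-like cells (22.2 CPM) each group overlapped its neighbour in the order, and main RPE (16.2 CPM) and the Dpt-led fibroblast-like cells (15.4 CPM) came last and overlapped. In Dox the order after dendritic- or macrophage-like cells was Malat1-rich RPE (135.8 CPM), which overlapped Serpina3n-high RPE (127.5 CPM), then the hemoglobin-led droplets (70.1 CPM) and Ccl11-led fibroblast-like cells (31.9 CPM). From there each neighbour overlapped the next, with main RPE at 15.9 CPM and the Dpt-led cells last at 4.58 CPM on 2 UMIs. All RPE cells together were 4.77-fold below all other cells in Control and 1.14-fold below them in Dox.

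In contrast to the RPE, all other cells together had less Gdf15 in Dox, 85.8 CPM (7659 UMIs) in Control against 49.4 CPM (3360 UMIs) in Dox, a ratio of -0.80 on the log2 scale (-0.86 to -0.74). The level was lower in Dox in 10 of 10 clusters present in both libraries, with an interval below 0 in 5 of them, but at the finer resolution in 13 of 16 clusters. In the 3 exceptions it was higher in Dox, with 19.4 and 67.2 CPM in the Fn1-led cluster, 37.4 and 105.6 CPM in the Gm26917-led cluster, and 33.2 and 52.0 CPM on 4 and 5 UMIs in the Gfra3-led cluster. The Gm26917-led cluster had Bmp4 at 198.7 and 171.4 CPM and Wfikkn2 at 45.2 and 47.8 CPM, with medians of 1719 and 1983 UMIs. Among its leading genes, Gm26917, Gm45895, Col4a4 and Col4a3 are listed by the paper as markers of an RPE cluster. Whether it holds RPE cells under the Rpe65 limit was not tested. Dendritic- or macrophage-like cells were 4.65% of kept cells in Control and 3.28% in Dox. The summed level of 10 macrophage markers was lower in Dox in the same 10 of 10 clusters, for example 166.4 and 82.7 CPM in Ccl11-led fibroblast-like cells, with 5 and 1 markers at 10 CPM or more and 0 at 0 in each. The part of macrophage RNA in the lower Gdf15 levels was not tested.

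In all RPE the macrophage markers were lower in Dox and Gdf15 was higher, and the part of macrophage RNA in these levels was not tested. The 10 markers summed to 222.9 CPM in Control RPE and 116.8 CPM in Dox RPE, with 6 and 2 of them at 10 CPM or more and none at 0. In main RPE, where Gdf15 did not differ beyond counting error, they summed to 216.2 and 126.2 CPM (6 and 2 at 10 CPM or more, none at 0). In Serpina3n-high RPE they summed to 104.5 and 66.2 CPM, with 3 and 2 at 10 CPM or more and 4 and 2 at 0, and in the dendritic- or macrophage-like cells to 12843 and 11793 CPM. The RPE cells with the largest shares of macrophage and dendritic marker UMIs were then left out, a choice made after seeing the data. This kept 1144 of 1526 Control and 1222 of 1630 Dox cells. The log2 ratio of Gdf15 was 1.72 in all RPE and 2.38 in Serpina3n-high RPE, both larger than with those cells. Leaving out instead the RPE cells highest in fibroblast, smooth muscle, endothelial and immune markers gave a smaller ratio in all RPE. Without the cells rich in macrophage and dendritic markers, Control Serpina3n-high RPE had 24.4 CPM (27 cells, 18 UMIs) in place of 34.1 CPM. The Dox level there was 127.3 CPM in place of 127.5 CPM. Other lists differed in the Serpina3n-high group too, the 12 fibroblast markers summing to 3922 CPM in Control against 3007 CPM in Dox (10 and 9 at 10 CPM or more, 1 and 0 at 0) and the 10 melanocyte markers to 4269 and 1917 CPM (9 and 8 at 10 CPM or more, none at 0), and their part was not tested. The median doublet score of Control Serpina3n-high cells was 0.324, against 0.136 in Dox and 0.135 and 0.0868 in main RPE.

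**Figure D3:**
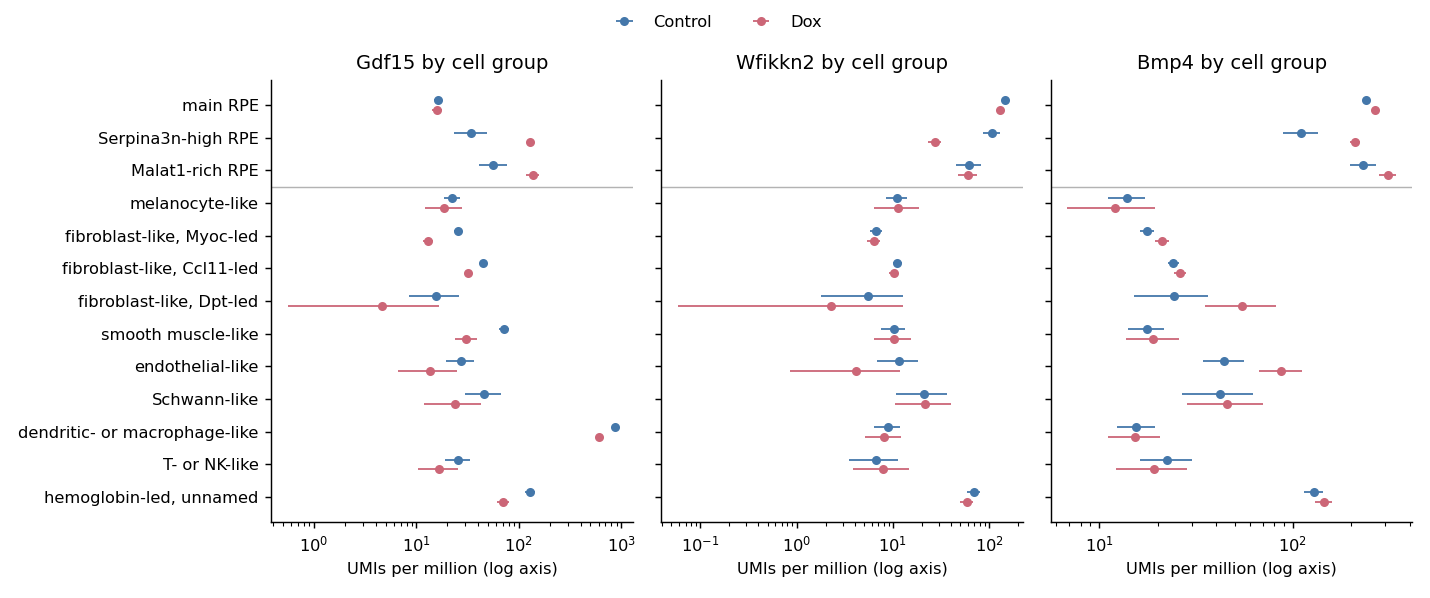
CPM of Gdf15, Wfikkn2 and Bmp4 (horizontal log axes) in each cell group (vertical axis), with points for Control and Dox and lines for 95% counting intervals. Gdf15 peaks in dendritic- or macrophage-like cells at 867.0 and 605.9 CPM, whereas Wfikkn2 and Bmp4 are highest in RPE groups.

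Wfikkn2, Bmp4, Bmp7 and Bmp2 were more abundant in all RPE than in all other cells together. Wfikkn2 in RPE was 12.9-fold its level in all other cells in Control and 10.2-fold in Dox. Bmp4 was 9.87-fold and 8.87-fold, Bmp7 11.5-fold and 9.70-fold, and Bmp2 4.42-fold and 4.24-fold. Not every RPE group had more Bmp2 than each other cluster. Serpina3n-high RPE (38.6 and 38.4 CPM) was below smooth muscle-like (45.7 and 53.9 CPM) and endothelial-like cells (42.4 and 69.45 CPM). It was also below the hemoglobin-led droplets (48.35 and 53.7 CPM). These intervals overlapped in Control and not in Dox. For Wfikkn2, Control levels ran from main RPE (145.1 CPM) through Serpina3n-high RPE (106.8 CPM) to the hemoglobin-led droplets (69.2 CPM) and Malat1-rich RPE (61.6 CPM), of which the last pair overlapped, and no cluster with a name had more than 20.9 CPM. In Dox, Serpina3n-high RPE (27.2 CPM) was in the fourth place and overlapped Schwann-like cells (21.7 CPM). The name of that cluster holds for few of its cells, since its median cell had 0 CPM of Schwann markers in both libraries. Its Malat1 level was 82098 CPM in Control and 75446 CPM in Dox. It held 12 and 10 Wfikkn2 UMIs, whereas the finer Gfra3-led cluster, with 8 of 8 Schwann markers detected, held 1 and 0. The hemoglobin-led droplets carried RPE and macrophage members alike, including 127.8 CPM of Bmp4 in Control, at the lowest UMI totals of any cluster. Endothelial-like cells, which line vessels, had 44.3 CPM of Bmp4 in Control against 87.2 CPM in Dox.

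The TGF-beta and activin genes were highest outside RPE. Tgfb1 was at 219.5 CPM in Control against 220.6 CPM in Dox endothelial-like cells at 208.5 and 226.4 CPM in dendritic- or macrophage-like cells and at 212.2 and 128.1 CPM in Dpt-led fibroblast-like cells. Tgfb2 was highest in smooth muscle-like cells, at 89.4 and 105.5 CPM. Next came Schwann-like cells in Control (64.6 CPM, 37 UMIs) and endothelial-like cells in Dox (64.0 CPM). In Control the finer Gfra3-led cluster, which carried the Schwann markers, had 33.2 CPM of Tgfb2 on 4 UMIs. Tgfb3 was highest in Myoc-led fibroblast-like cells, at 163.9 and 173.5 CPM. In both libraries the highest level of each TGF-beta gene was in a cluster outside RPE, and several clusters shared high levels of Tgfb1 and Tgfb2. Inhba was highest in the Dpt-led fibroblast-like cells, at 28.6 CPM (26 UMIs) and 75.5 CPM (33 UMIs), where 1 Dox cell held 15 UMIs. Inhbb was highest in endothelial-like cells, at 10.3 CPM (16 UMIs) and 5.45 CPM (4 UMIs). Its intervals there, 5.87 to 16.7 and 1.48 to 13.95, overlapped those of Serpina3n-high RPE, 0.0288 to 6.33 and 1.34 to 3.95.

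**Figure D4:**
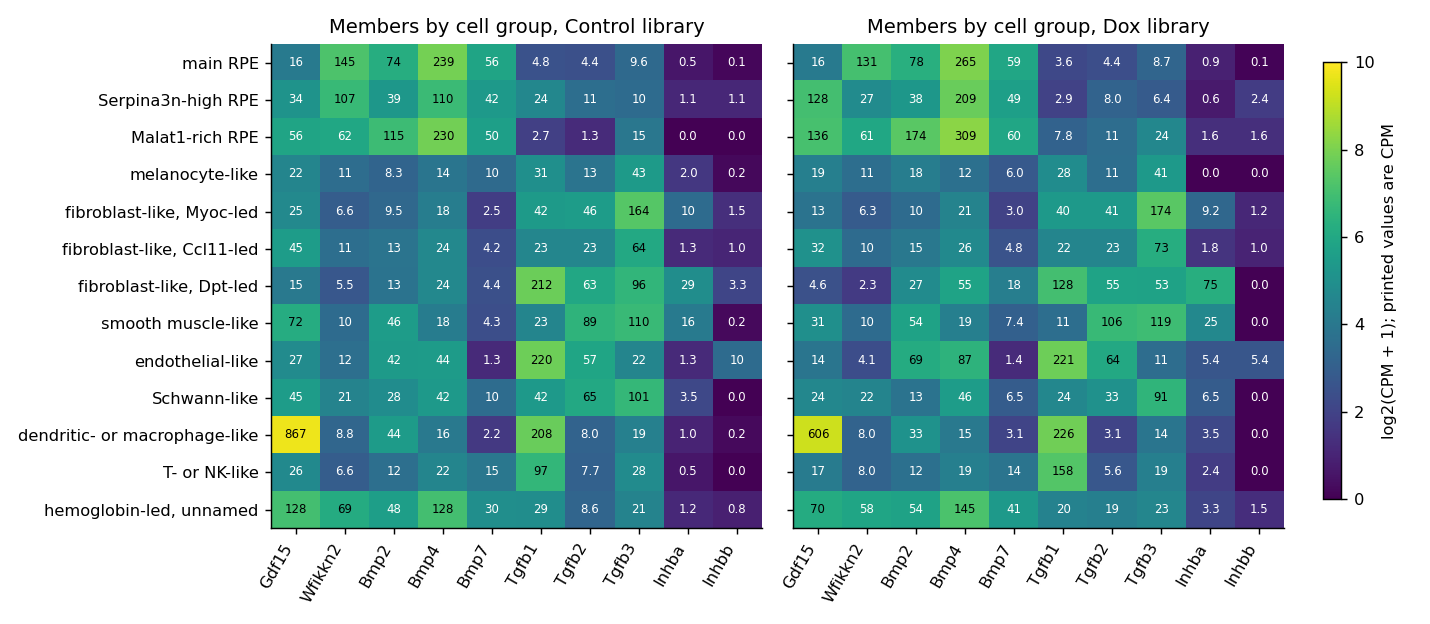
CPM of the 10 members (columns) in 13 cell groups (rows) of the Control and Dox libraries, coloured by log2(CPM + 1) with the rounded CPM printed in each cell. The brightest row for each of Wfikkn2, Bmp2, Bmp4 and Bmp7 is an RPE row, though not every RPE row is above the other rows. Tgfb3 is brightest in fibroblast-like and smooth muscle-like rows.

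The patterns over 13 groups of 2 libraries (26 points, which share libraries and differ in depth) were compared with those of 10937 other genes by Pearson correlation of log2(CPM + 1), as a description. The genes most like Gdf15 were the macrophage genes Aif1 (r = 0.85), Cd180 (r = 0.85), Cd68 (r = 0.84), Cd14 (r = 0.84) and Cd33 (r = 0.84). Those most like Wfikkn2 were Rom1 (r = 0.95), Rd3l (r = 0.95), Rdh10 (r = 0.95), Adra2c (r = 0.95) and Vat1l (r = 0.94). Rom1 encodes a photoreceptor disc protein and Rdh10 a retinol dehydrogenase of the RPE.

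The rest of the pathway was described with lists of genes chosen with earlier results known, so nothing is read from their counts and medians below. Of 22 other ligands, 6 had enough UMIs and 0 were past 2-fold in all RPE, the most abundant being Gdf11, at 46.3 and 44.1 CPM. The largest ratios were those of Gdf10 (-0.14), the inhibin alpha subunit gene Inha (-0.12) and Bmp6 (0.10), a BMP gene at 38.7 CPM in Control against 41.6 CPM in Dox. In Serpina3n-high RPE 1 of 3 was past 2-fold, Gdf10, with 13 and 15 UMIs and a log2 ratio of -2.62. Bmp6 (-0.61) and Gdf11 (-0.01), the gene of a ligand that WFIKKN2 binds, were within it.

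Of the receptors, 0 of 12 were past 2-fold in all RPE, the largest ratios being those of Eng (-0.81), Bmpr1b (-0.59) and Acvrl1 (-0.44). The highest were the co-receptor gene Tgfbr3, at 49.0 CPM in Control against 50.9 CPM in Dox, the BMP type II receptor gene Bmpr2, at 48.7 and 52.1 CPM, and the BMP type I receptor gene Bmpr1a, at 36.1 and 37.1 CPM. No UMI of Gfral, the GDF15 receptor gene, was found in RPE cells of either library, and 1 Ret UMI was found in Dox. In Serpina3n-high RPE 1 of 10 receptors was lower in Dox by 2-fold, Eng, with a log2 ratio of -1.92, while Tgfbr2 (-0.95) and Tgfbr1 (-0.67) were short of it. The Smad genes had 0 of 8 past 2-fold in all RPE, where the largest ratios were those of Smad6 (-0.25), Smad1 (0.20) and Smad5 (-0.16), and 2 of 7 in Serpina3n-high RPE, both lower in Dox. These were Smad7, an inhibitory Smad that the pathway itself induces, at 34.1 and 10.2 CPM, and Smad3, a transducer of TGF-beta and activin, at 18.2 and 6.87 CPM. Smad6, the other inhibitory Smad, was at 7.95 and 4.96 CPM.

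Among genes of extracellular binders, which bind ligands or keep them latent, 1 of 15 was higher and 1 lower in Dox RPE. Sost was higher on 6 and 21 UMIs, and Ltbp2 was lower, at a log2 ratio of -1.17, followed by Lrrc32 (-0.93), which was short of 2-fold. In Serpina3n-high RPE 4 of 9 were lower and 0 higher. Sostdc1, a BMP antagonist gene, was at 314.7 CPM in Control against 105.8 CPM in Dox, and Fstl1 was at 126.1 and 43.5 CPM. The other 2 were Ltbp4 (log2 ratio -1.63) and Fstl3 (-1.05), while the BMP antagonist gene Nog was at 51.1 and 69.2 CPM. The median over the 9 was -0.58, beside -0.02 over all genes. In the same cells the 8 smooth muscle markers summed to 774.8 CPM in Control against 236.1 CPM in Dox (5 and 3 at 10 CPM or more, 1 and 0 at 0), and their part in the levels of binders and pathway targets was not tested.

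Of 13 genes that TGF-beta or BMP signals are known to induce, 6 were lower by 2-fold in Dox Serpina3n-high RPE and 0 higher, beside 663 lower and 715 higher of 10325 genes (13.3% past 2-fold). The median log2 ratio was -0.93, beside -0.02 over all genes. Id3, a BMP target, was at 1476 CPM in Control against 491.2 CPM in Dox, and Pmepa1 was at 69.3 and 24.3 CPM. Also lower were Hey1 (-1.83), Junb (-1.20) and Skil (-1.08), of which Junb is also an immediate-early gene that tissue handling can raise, and Id2, another BMP target, was at 302.2 and 397.0 CPM. In main RPE 0 of 17 were higher and 1 lower, with a median of -0.18. In all RPE 2 were lower, Tgfbi (-1.07) and Ltbp2, the same gene that was counted among the binders, and Id4 followed at -0.51.

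Of the p53 targets, 8 of 12 were higher by 2-fold in Dox Serpina3n-high RPE and 0 lower. Their median was 1.33 beside -0.02 over all genes, of which 13.3% were past 2-fold (715 higher and 663 lower of 10325). In main RPE 0 of 12 were past 2-fold and the median was 0.04. The paper had already reported some of this list, such as Cdkn1a and Ccng1, as raised by Dox in these libraries. The counts of this list are therefore descriptions only. In all RPE 3 of 12 were higher, Eda2r (1.29), Phlda3 (1.27) and Cdkn1a (1.25). Malat1-rich RPE also had higher levels in Dox, with 5 of 11 past 2-fold, 0 lower and a median of 0.85. Over all genes there the median was 0.02, and 5.73% of 9266 genes were past 2-fold. Cdkn1a was at 84.4 CPM in Control against 201.7 CPM in Dox Malat1-rich RPE. In Serpina3n-high RPE Cdkn1a was at 63.6 CPM in Control against 315.0 CPM in Dox, Ccng1 at 36.4 and 193.6 CPM and Phlda3 at 64.8 and 180.8 CPM. Zmat3 was at 2.27 CPM (2 UMIs) and 24.6 CPM (154 UMIs), a ratio of 3.44 on the log2 scale (1.56 to 6.496). Btg2, also a p53 target and an immediate-early gene, had the opposite direction, at 229.5 and 158.6 CPM, and Sesn1 was at 13.6 and 10.9 CPM, with an interval that includes 0. In main RPE, where Gdf15 did not differ beyond counting error, Phlda3 (0.43), Zmat3 (0.45) and Cdkn1a (0.27) had intervals above 0 and Plk2 (-0.33) and Btg2 (-0.18) intervals below 0. Of the integrated stress response genes, 1 of 7 was higher, Sesn2, which p53 also induces, at 5.68 and 16.6 CPM, and 0 were lower. Ddit3 was at 48.9 and 45.9 CPM, Atf4 at 65.9 and 77.2 CPM and Atf3 at 132.9 and 86.0 CPM, and Ppp1r15a, which restores translation, at 198.8 and 102.1 CPM. In all RPE 1 of 9 was past 2-fold, Slc7a11, which was lower (-1.01, 22 and 13 UMIs), while Sesn2 (0.78) and Atf3 (-0.69) were within it. In Serpina3n-high RPE all these lists share the same 33 Control cells, and the lists were compared by counts alone.

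**Figure D5:**
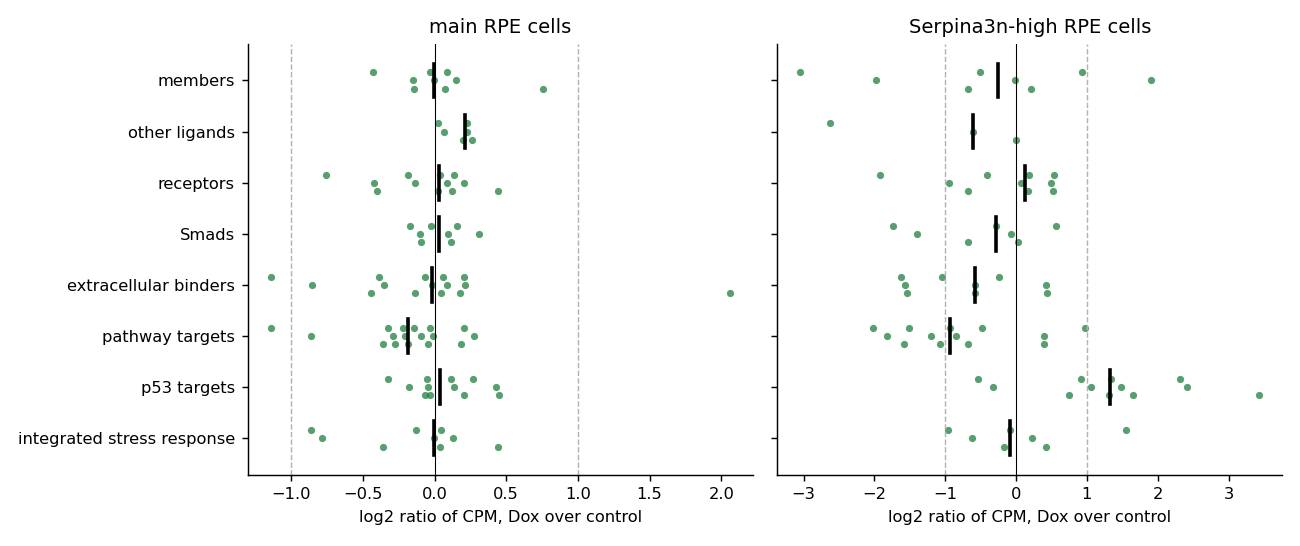
Log2 ratio of CPM, Dox over Control (horizontal axis), for the genes of each list (vertical axis) in main and Serpina3n-high RPE, on separate scales, with a point per gene of at least 20 UMIs and a line at the list median. In Serpina3n-high RPE the p53 target median is 1.33 and that of the pathway targets -0.93.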

How the data were processed

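The deposited values are whole-number UMI counts for 32285 genes in each cell, which the authors made with Cell Ranger on mm10 (version 4.0.0 by the file header). Members and gene lists were chosen with earlier results of these data known. A cell was kept when it had over 500 UMIs, 200 to 6000 genes, a mitochondrial share below 0.2 and a ratio of log10 genes to log10 UMIs over 0.8. RPE cells and their groups were defined by the counts of Rpe65 (10 UMIs), Malat1 (50000 CPM) and Serpina3n (500 CPM), the last limit being a choice of this re-analysis. Other cells were log-normalised and clustered with scanpy 1.11.5 and leidenalg 0.10.2 (3000 variable genes without any listed gene, 40 components, resolution 0.3) and named "X-like" from marker lists when at least 3 markers were detected and the leading genes did not go against the name.

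UMIs were summed per group and library in numpy 2.4.6, pandas 2.3.3 and scipy 1.17.1 (Python 3.11.15). Levels (CPM) have exact Poisson intervals, shares Clopper-Pearson intervals, and ratios exact conditional binomial intervals, all at 95%. Genes with at least 20 UMIs over both libraries were counted, and past 2-fold stands in place of a test, since neither condition has a replicate. On Poisson counts simulated at the group totals with 2-fold changes, the interval held 95% of 100 changed genes for all RPE (14215 genes). It held 96.7% of 91 for Serpina3n-high RPE (10325 genes). Such counts follow the model behind the intervals and carry no spread between cells. They check only the calculation.

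Doublets were not removed. Scrublet in scanpy called 0 Control and 1134 Dox cells, so the highest scores up to an expected 0.8% per 1000 cells (3258 Control and 1904 Dox cells) were left out as an alternative. All 10 members are named, with the 3 largest ratios of each list in all RPE and in Serpina3n-high RPE, any receptor or Smad, and the 5 genes most correlated with Gdf15 or Wfikkn2. Nog, Fstl3, Pmepa1, Junb, Skil, Id2, Btg2, Ddit3, Atf4 and, in Serpina3n-high RPE, Phlda3 were chosen after their values were seen. The values of 1 gene that this rule names are not reported here. Promoters came from RefSeq on GRCm38.p6, and figures were drawn with matplotlib 3.10.9.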

Additional observations from a re-analysis of the deposited data

Results flagged for a closer look

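The ratio of Gdf15 between conditions had opposite signs in RPE cells and in the other cells of the same libraries. In all RPE cells the log2 ratio of Dox over Control was 1.27, and in all other cells it was -0.80. With 1 library per condition the difference between these ratios was not tested. Main RPE as a whole was at -0.03. Within it, cells at 200 to 500 Serpina3n CPM had 77.3 CPM of Gdf15 in Dox against 17.8 CPM in Control. Cells with no Serpina3n UMI had 10.98 CPM in Dox against 16.8 CPM in Control. Outside the cells taken as RPE, 3 finer clusters went against the direction of the other cells. Of these, the Gm26917-led cluster had 198.7 and 171.4 CPM of Bmp4, and whether it holds RPE cells was not tested.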

How the results depend on the processing

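Of 582 values under alternative settings, 504 stayed within the reported counting interval or, for counts of members, equal or near the reported count. In 4 the sign changed although the reported interval excluded 0. Some ratios with an interval that included 0 changed sign as well, and that of Gdf15 in main RPE ran from -0.26 to 0.25. The log2 ratio of Gdf15 in all RPE was 0.96 with at least 5 Rpe65 UMIs, 0.92 as a mean of each cell's own CPM, 1.05 with cells thinned to 2000 UMIs, 1.06 without the RPE cells highest in fibroblast, smooth muscle, endothelial and immune markers, 1.56 without the highest Scrublet scores and 1.72 without those highest in macrophage and dendritic markers, the last chosen after seeing the data. The first 2 of these values put Gdf15 under 2-fold. The count of members past 2-fold in all RPE was 1 in place of 2 with at least 5 Rpe65 UMIs, where Inhbb was left, and with at least 20, after thinning, without either set of marker-rich cells, without the highest Scrublet scores and with at least 50 UMIs per gene, where Gdf15 was left. In Serpina3n-high RPE the ratio of Gdf15 was 1.17 with at least 5 Rpe65 UMIs, 1.06 as a mean of each cell's own CPM and 2.75 after thinning, on 1 and 47 UMIs of a random draw separate from the one behind the thinned shares. Serpina3n-high over main RPE was 2.78, 2.75 and 2.56 in Dox under those 3 settings, and -0.43 in Control after thinning, on 1 UMI. At resolution 0.6, Cd209a-led and C1qb-led clusters stood in place of the dendritic- or macrophage-like cells, though not as strict parts of them. Their Gdf15 levels were 21.4 and 1768 CPM in Control and 13.5 and 1365 CPM in Dox. Among ratios with an interval that excluded 0, the sign also changed for Tgfb1 in main RPE with at least 5 Rpe65 UMIs (0.039). The same held for Bmp4 after thinning in Serpina3n-high (-0.10) and Malat1-rich RPE (-0.054). The causes were not tested. The ratio of Wfikkn2 in Serpina3n-high RPE stayed between -2.44 and -1.22. No paired analysis was possible because each condition has 1 library, and for the same reason no library could be left out. The Control Serpina3n-high group, at 33 cells and 880215 UMIs, limits each comparison that uses it.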
